A study of Mus musculus with 9 samples.

Results

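Gene expression after deep and after moderate sevoflurane anesthesia was compared in mouse brain tissue, using the 3 libraries labelled 2.0 MAC and the 3 labelled 0.7 MAC, which are 6 of the 9 libraries of the series. The members were taken by title, and every gene with enough reads was described. Doses of inhaled anesthetics are given in MAC (minimum alveolar concentration). The 2.0 MAC mice inhaled sevoflurane at 2.0 MAC for the first 30 min and at 0.7 MAC for the following 90 min, so their tissue was taken after a return to the lower dose. The 0.7 MAC mice inhaled 0.7 MAC for 120 min, and both groups breathed 100% oxygen. The remaining 3 libraries came from control mice (CTRL) that were free to move for 120 min and received no sevoflurane. They are used here only to place the 2 anesthetized groups. No oxygen level is given for the control mice. Sevoflurane, freedom to move and possibly oxygen differ together between control and anesthetized mice, and cannot be told apart in comparisons with control. All mice were male wildtype C57BL/6J animals of 8 to 15 weeks, and no allele or transgene separates the groups. The sample label gives hypothalamus, the study's methods describe what was left of the brain once cortex, cerebellum and olfactory bulb had been cut away, and the extraction text names whole brain, so the extent of the tissue is not settled. Whether each library is a separate mouse is not stated, and p-values therefore measure the spread between libraries, which may be technical.

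Sevoflurane is a volatile anesthetic that strengthens inhibitory currents through GABA-A and glycine receptors, weakens excitatory transmission at glutamate receptors and acts on background potassium channels. Deep levels depress the cortex and the breathing centers of the medulla and pons. Brain regions differ in the genes their neurons use. Cortical and hippocampal excitatory neurons load glutamate into vesicles with one transporter (Slc17a7), thalamic, hypothalamic and brainstem neurons mostly with another (Slc17a6), striatal projection neurons carry dopamine receptors and signalling enzymes of their own, and the hypothalamus makes peptide hormones. Myelin comes from oligodendrocytes, which are dense in the fiber tracts of the brainstem. RNA from a bulk piece of tissue sums over all of these cells.

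Values are CPM, the exon-based reads of a gene relative to all such reads of its library, scaled by TMM factors, which compensate for differences in composition between libraries. A gene rose or fell when edgeR's quasi-likelihood test gave a Benjamini-Hochberg adjusted p under 0.05, at any fold. Exon-based reads numbered 5321491 to 7178568 per library, and 14140 of 49585 genes were tested. The 2.0 MAC libraries stood apart from the other 6 on the first principal component, which held 34.4% of the variance, at -22.9 to -17.84 against 3.924 to 18.06. Some libraries also differed within their group. The summed level of 18 tested cerebellar genes was 1018, 981 and 1785 CPM in the 2.0 MAC libraries, against 1905, 3172 and 1213 CPM in the 0.7 MAC libraries and 1216, 1004 and 1198 CPM in the control libraries. It was high in 2.0 MAC replicate 3 and in 0.7 MAC replicates 1 and 2, so both groups mixed high and low libraries. Hemoglobin genes were highest in those same 0.7 MAC libraries, with summed levels of 4.45, 9.36 and 20.7 CPM in the 2.0 MAC group and 33, 32 and 4.6 CPM in the 0.7 MAC group. Of 10 pituitary marker genes, 8 had too few reads to be tested. The growth hormone gene Gh was at 0.556, 6.78 and 0.138 CPM in the 2.0 MAC libraries, 6.55, 6.2 and 1.99 CPM in the 0.7 MAC libraries and 0 in all control libraries. The tissue held genes of several regions: the cortical gene Slc17a7, the cerebellar gene Gabra6, the hypothalamic gene Pmch and the hindbrain gene Hoxb8 were all measured. Of 30 hypothalamic marker genes 19 were tested, and Kiss1, Agrp, Ghrh and Nr5a1 were among those below the filter.

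Between the 2.0 MAC and 0.7 MAC groups, 845 genes rose (5.98% of those tested) and 1235 fell (8.73%). Counts within gene lists below are to be read against these shares. By at least 2-fold, 18 rose (0.127%) and 186 fell (1.32%). Without 2.0 MAC replicate 1 or 2 fewer rises were called, 9 and 11 by at least 2-fold and 540 and 497 at any fold. Levels of 2107 genes (14.9%) lay higher in every 2.0 MAC library than in every 0.7 MAC library, and 2321 (16.4%) lay lower in every one. Most genes named below were picked for a small adjusted p or a large fold, which favors groups without overlap. A lack of overlap is therefore given as description and not as further support. With upper-quartile scaling 1128 genes rose and 1029 fell, with library totals 1087 and 1077, and with limma on the authors' RPKM 1705 and 723, so the balance between the directions depended on the scaling. The median log2 fold change of all tested genes was 0.00 with TMM, and the other scalings of read counts moved it by less than 0.1. Counts of 3 or fewer within a gene list often changed when 1 library was left out, and larger ones that did are given with their values.

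**Figure D1:**
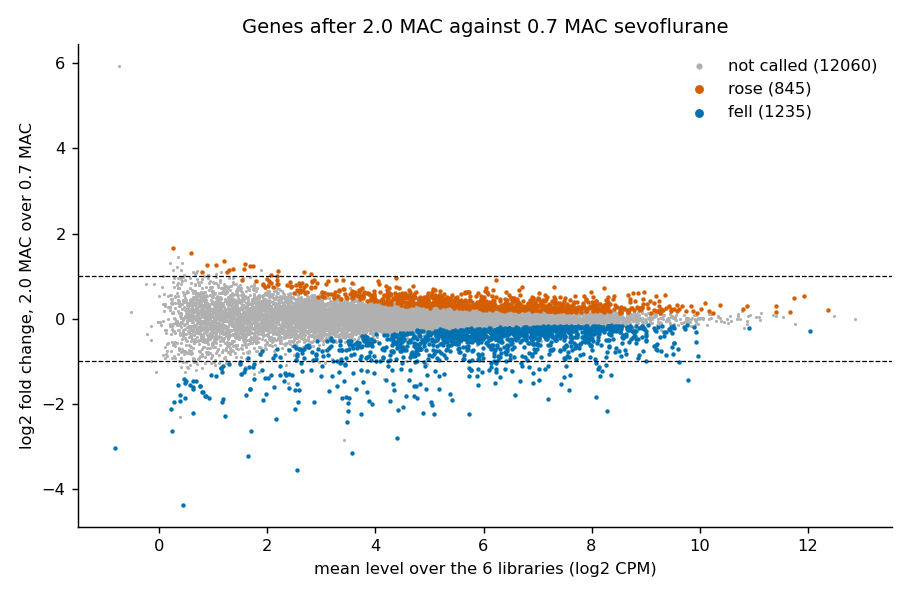
Log2 fold change of 2.0 MAC over 0.7 MAC (vertical axis) against the mean level in log2 CPM over the 6 libraries (horizontal axis) for 14140 tested genes. Orange points are the 845 genes that rose, blue points the 1235 that fell and grey points the rest. Falls past 2-fold (dashed lines) numbered 186 and rises past 2-fold 18, and the isolated grey point at the top is Gm21985, which had 0 reads in every 0.7 MAC library and reads in 1 of the 2.0 MAC libraries.

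The largest falls included several genes that mark the cortex. Tbr1, a transcription factor of deep-layer and subplate neurons, was at 3.71, 5.97 and 6.08 CPM in the 2.0 MAC libraries, against 30.4, 30.8 and 50.2 CPM in the 0.7 MAC libraries, a log2 fold change of -2.79 with a standard error of 0.36 (adjusted p = 6.72e-05). Fezf2, which directs subcortical projection neurons, was at 1.11, 0.323 and 1.24 CPM in the 2.0 MAC libraries, against 6.83, 3.91 and 6.13 CPM in the 0.7 MAC libraries, a log2 fold change of -2.63 with a standard error of 0.42 (adjusted p = 0.000432), and Emx1, a factor of the developing pallium, changed by -2.28. The 2.0 MAC libraries lay below the 0.7 MAC libraries for all 3 genes, but a lack of overlap was required of genes named for the largest folds. The Nogo receptor relative Rtn4rl2 changed by -2.36, the Ras relative Rasl10a by -2.63 and the genes Gm11549 and Gm19410, which have no assigned name, by -3.23 and -2.43. Dkkl1 stood at 0, 0.161 and 0.138 CPM in the 2.0 MAC libraries, against 1.53, 2.45 and 3.83 CPM in the 0.7 MAC libraries (adjusted p = 0.000941), which is 1 read or none in each 2.0 MAC library.

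The largest rises were smaller and at low levels. Lncenc1, a long noncoding RNA, was at 4.27, 4.52 and 5.11 CPM in the 2.0 MAC libraries, against 1.81, 2.45 and 1.69 CPM in the 0.7 MAC libraries, a log2 fold change of 1.23 with a standard error of 0.26 (adjusted p = 0.00343). Pgr15l, a G protein-coupled receptor, was at 5.19, 7.42 and 6.21 CPM in the 2.0 MAC libraries, against 3.06, 2.61 and 2.91 CPM in the 0.7 MAC libraries, a log2 fold change of 1.13 with a standard error of 0.23 (adjusted p = 0.003). The groups did not overlap for either gene, which the rule for naming the largest folds required. Prrxl1, a homeodomain factor of sensory pathways, changed by 1.16 (adjusted p = 0.0119, and 0.0791 in DESeq2). Another large rise depended on single libraries. The ghrelin receptor gene Ghsr, at 1.35 (adjusted p = 0.0138), had an adjusted p of 0.0522 to 0.0585 without 2.0 MAC replicate 1 or 2 or 0.7 MAC replicate 1 or 3.

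Abundant genes moved by smaller folds. Meg3, a long noncoding RNA of neurons, was at 5643, 5744 and 5694 CPM in the 2.0 MAC libraries, against 4903, 4939 and 5074 CPM in the 0.7 MAC libraries, a log2 fold change of 0.20 with a standard error of 0.04 (adjusted p = 0.0056). The fatty acid desaturase gene Scd2 changed by 0.30, Sparcl1 (hevin), a matrix protein of astrocytes, by 0.29, and the cytoskeletal linker gene Dst by 0.23. Among the abundant genes that fell, Cyfip2, a regulator of actin and translation, changed by -0.25, and the adaptor gene Ywhaz by -0.32. With limma on RPKM Cyfip2 did not pass (adjusted p = 0.109). Epb41l3, a membrane skeleton protein of axons, was at 483, 485 and 461 CPM in the 2.0 MAC libraries, against 365, 354 and 361 CPM in the 0.7 MAC libraries, a log2 fold change of 0.40 with a standard error of 0.05 (adjusted p = 3.18e-05), among the 6 smallest adjusted p of genes that rose.

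Genes of cortical and hippocampal excitatory neurons were lower after 2.0 MAC. Of 28 tested genes 20 fell and 0 rose, with a median log2 fold change of -1.03 against 0.00 for all tested genes. Slc17a7, the vesicular glutamate transporter of these neurons, was at 97.6, 115 and 141 CPM in the 2.0 MAC libraries, against 386, 391 and 489 CPM in the 0.7 MAC libraries, a log2 fold change of -1.83 with a standard error of 0.18 (adjusted p = 7.29e-06). Every 2.0 MAC library lay below every 0.7 MAC library for this gene. Mef2c, a transcription factor of maturing cortical neurons, changed by -1.52 and Itpka, a kinase of dendritic spines, by -2.23 on the log2 scale. Intron reads of 21 of these genes could be tested, and 9 fell with a median of -0.69. Summed over the list, levels were 1319, 1377 and 1543 CPM in the 2.0 MAC libraries, 2349.5, 2437 and 2612 CPM in the 0.7 MAC libraries and 2384, 1749 and 1833 CPM in the control libraries. In bulk tissue, fewer cells of a type and less RNA per cell cannot be told apart, and a different share of cortex in the dissected pieces cannot be told apart from either.

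Striatal projection neurons showed the same direction with nearly every marker. Of 24 tested genes 23 fell, with a median log2 fold change of -1.01. The dopamine D1 receptor gene Drd1 was at 16.5, 15.5 and 12.6 CPM in the 2.0 MAC libraries, against 34.3, 40.9 and 64.3 CPM in the 0.7 MAC libraries, a log2 fold change of -1.66 with a standard error of 0.19 (adjusted p = 3.1e-05). Rgs9, which shortens G protein signals in striatal neurons, was at 44.3, 38.1 and 42.9 CPM in the 2.0 MAC libraries, against 73.1, 99.9 and 114 CPM in the 0.7 MAC libraries, a log2 fold change of -1.19 with a standard error of 0.13 (adjusted p = 2.07e-05). Arpp21, a striatum-enriched phosphoprotein regulated by cyclic AMP, was at 179, 172 and 161 CPM in the 2.0 MAC libraries, against 332, 381 and 440.0 CPM in the 0.7 MAC libraries, a log2 fold change of -1.17 with a standard error of 0.11 (adjusted p = 6.55e-06). None of these values overlapped between the groups, and 0.7 MAC replicate 1 was the lowest of its group for all 3 genes. The tryptophan-degrading enzyme gene Ido1 had 0 reads in 2 of the 2.0 MAC libraries, and its fall was lost without 2.0 MAC replicate 2 or 3 (adjusted p = 0.0786 and 0.0777). The forkhead factor gene Foxp1 changed by -0.89 on the log2 scale. Scn4b was the only tested member not to pass, at -0.21 (adjusted p = 0.275, and 0.0159 without 0.7 MAC replicate 1). Summed over the list, levels were 1854, 1704 and 1707 CPM in the 2.0 MAC libraries, 2592, 3071 and 3902 CPM in the 0.7 MAC libraries and 3925, 3222 and 3798 CPM in the control libraries.

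Genes of forebrain interneurons moved less and in both directions. Of 24 tested genes 8 fell (33.3%, against 8.73% of all tested genes) and 1 rose (4.17%, against 5.98%), with a median of -0.19. Lhx6, a transcription factor of interneurons born in the medial ganglionic eminence, was at 6.31, 5.16 and 5.66 CPM in the 2.0 MAC libraries, against 10, 9.78 and 11.8 CPM in the 0.7 MAC libraries, a log2 fold change of -0.89 with a standard error of 0.17 (adjusted p = 0.00189). The groups did not overlap. The calretinin gene Calb2 was the one that rose, by 0.49 on the log2 scale, and calretinin is also made by neurons outside the forebrain.

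**Figure D2:**
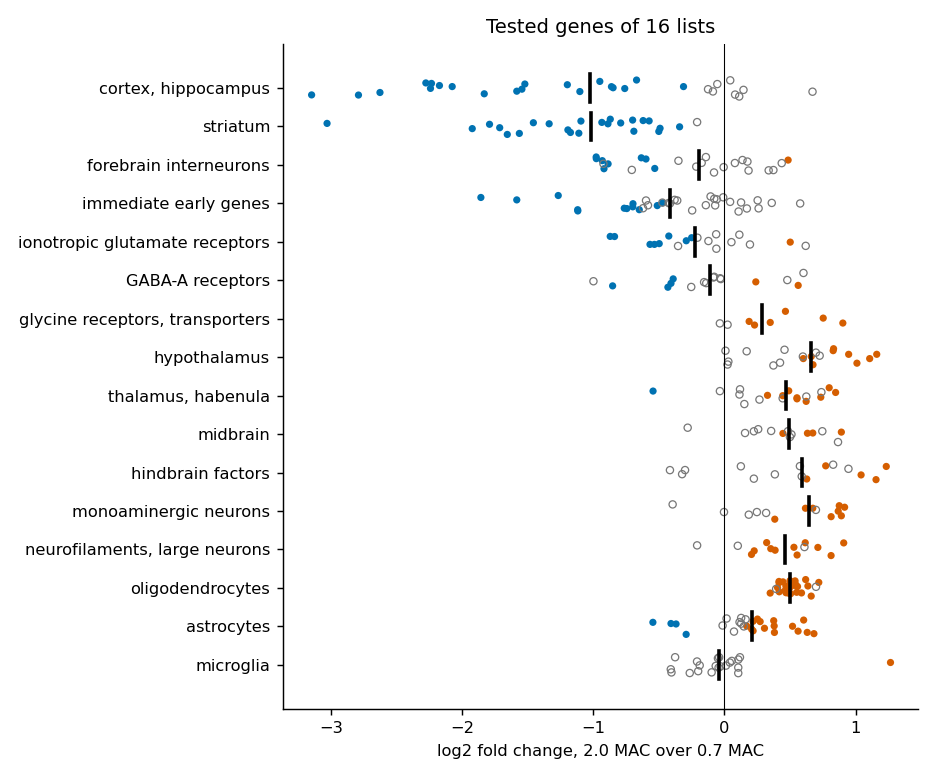
Log2 fold change of 2.0 MAC over 0.7 MAC for each tested gene (points) of 16 marker lists, with the median of each list as a vertical bar. Filled points passed the test (orange rose, blue fell) and open points did not. The cortex and striatum medians lie at -1.03 and -1.01, those of hypothalamus, monoaminergic neurons and oligodendrocytes at 0.66, 0.65 and 0.50.

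The genes that fell with the smallest adjusted p included several of the postsynaptic side of excitatory synapses, and 6 genes shared the smallest value, adjusted p = 2.99e-06. Ddn (dendrin), a postsynaptic protein of dendrites, was at 87.2, 109 and 144 CPM in the 2.0 MAC libraries, against 498, 428 and 616 CPM in the 0.7 MAC libraries, with a log2 fold change of -2.17. Cnksr2, a postsynaptic scaffold, was at 106, 101 and 126 CPM in the 2.0 MAC libraries, against 257, 264 and 308 CPM in the 0.7 MAC libraries, with a log2 fold change of -1.31. Akap5, which anchors protein kinase A at the synapse, was at 56.2, 55.4 and 53.6 CPM in the 2.0 MAC libraries, against 114, 128 and 146 CPM in the 0.7 MAC libraries, with a log2 fold change of -1.23. Libraries of one group lay close together for Akap5, and the 2.0 MAC level was below the lowest control value, 107 CPM. The actin regulator gene Baiap2 and the genes Sowaha and Zfp831 changed by -1.28, -1.20 and -1.87. The calmodulin-dependent kinase gene Camk2a, one of the most abundant genes that fell, was at 391, 469 and 550.4 CPM in the 2.0 MAC libraries, against 1237, 1082 and 1536 CPM in the 0.7 MAC libraries, a log2 fold change of -1.45 with a standard error of 0.15 (adjusted p = 1.03e-05). Igfn1, the gene of an immunoglobulin-domain protein, was at 0.556, 1.13 and 0.967 CPM in the 2.0 MAC libraries, against 9.33, 10.9 and 12.3 CPM in the 0.7 MAC libraries, a log2 fold change of -3.56 with a standard error of 0.38 (adjusted p = 1.39e-05). These genes are in no marker list here except Camk2a, which is in the list of neuron identity, and the part of cortical and striatal tissue in their values was not tested.

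Ionotropic glutamate receptor genes were in part lower after 2.0 MAC, and genes of glycine receptors and transporters in part higher. Of 18 ionotropic glutamate receptor genes 8 fell and 1 rose (median -0.23), while of 8 genes of glycine receptors and transporters 6 rose and 0 fell (median 0.29). Grin2b, an NMDA receptor subunit, was at 678, 719.5 and 719.7 CPM in the 2.0 MAC libraries, against 1215, 1142 and 1514 CPM in the 0.7 MAC libraries, a log2 fold change of -0.87 with a standard error of 0.10 (adjusted p = 1.91e-05). Grin2a, its alternative subunit, was at 269, 274 and 315 CPM in the 2.0 MAC libraries, against 495, 474 and 565 CPM in the 0.7 MAC libraries, a log2 fold change of -0.84 with a standard error of 0.09 (adjusted p = 2.22e-05). Gria2, the AMPA receptor subunit that limits calcium entry, was at 603, 593 and 598 CPM in the 2.0 MAC libraries, against 848, 850.1 and 959 CPM in the 0.7 MAC libraries, a log2 fold change of -0.57 with a standard error of 0.06 (adjusted p = 1.8e-05). The 2.0 MAC values of all 3 genes lay close together and below every 0.7 MAC value. Grin2d, an NMDA subunit of the thalamus and brainstem, was the one that rose, by 0.50. Of 7 metabotropic receptor genes Grm5 fell, at -0.56.

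Glra1, the glycine receptor subunit of adult spinal cord and brainstem, was at 96.6, 102 and 93.6 CPM in the 2.0 MAC libraries, against 49.9, 53.3 and 53 CPM in the 0.7 MAC libraries, a log2 fold change of 0.90 with a standard error of 0.11 (adjusted p = 5.2e-05). Slc6a9, the glial glycine transporter, was at 92.9, 90.4 and 90.7 CPM in the 2.0 MAC libraries, against 66.2, 69.1 and 63.1 CPM in the 0.7 MAC libraries, a log2 fold change of 0.47 with a standard error of 0.07 (adjusted p = 0.000425). Both were higher in every 2.0 MAC library than in any 0.7 MAC library. Without 2.0 MAC replicate 1, 0.7 MAC replicate 1 or 0.7 MAC replicate 2, 3 of these genes rose. Of 16 GABA-A receptor subunit genes 4 fell (25%) and 2 rose (12.5%), against 8.73% and 5.98% of all tested genes. Gabrd, the delta subunit of extrasynaptic receptors, was at 24.5, 19.4 and 24.3 CPM in the 2.0 MAC libraries, against 36.4, 51.2 and 36 CPM in the 0.7 MAC libraries, a log2 fold change of -0.85 with a standard error of 0.14 (adjusted p = 0.000655). Gabra2 changed by -0.41, and the theta subunit gene Gabrq, of the hypothalamus and brainstem, by 0.56 (adjusted p = 0.0117, and 0.0662 without 2.0 MAC replicate 1). Summed cortex and striatum markers were lower in the same libraries, and their part in these receptor values was not tested.

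The vesicular glutamate transporter genes moved in opposite directions. Against the fall of Slc17a7, Slc17a6 was at 327, 311 and 286 CPM in the 2.0 MAC libraries, against 220.2, 184 and 195 CPM in the 0.7 MAC libraries, a log2 fold change of 0.62 with a standard error of 0.08 (adjusted p = 5e-05). The groups did not overlap for either gene. Of 9 genes of glutamate and GABA neuron identity 2 rose and 3 fell, Slc17a7 and Camk2a among those that fell.

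Ion channel genes split by subtype. Of 42 voltage-gated potassium channel genes 16 fell and 6 rose, and of 22 calcium channel genes 11 fell and 2 rose. Kcnh3, an ether-a-go-go type channel of the forebrain, was at 8.35, 11.5 and 11.2 CPM in the 2.0 MAC libraries, against 41.5, 45.8 and 59.1 CPM in the 0.7 MAC libraries, a log2 fold change of -2.22 with a standard error of 0.21 (adjusted p = 6.55e-06). Kcnip2, an accessory subunit of A-type channels, was at 30.2, 27.6 and 32.6 CPM in the 2.0 MAC libraries, against 67.6, 67.7 and 95.1 CPM in the 0.7 MAC libraries, a log2 fold change of -1.34 with a standard error of 0.13 (adjusted p = 8.25e-06). In contrast Kcnab3, a beta subunit, was at 63.8, 62.9 and 62.1 CPM in the 2.0 MAC libraries, against 40.7, 41.1 and 40.9 CPM in the 0.7 MAC libraries, a log2 fold change of 0.62 with a standard error of 0.08 (adjusted p = 5.33e-05). Each group spanned less than 2 CPM for Kcnab3, and the groups were far apart. Kcnj4, an inward rectifier, was at 12.8, 11.5 and 14.5 CPM in the 2.0 MAC libraries, against 46, 45.3 and 68.5 CPM in the 0.7 MAC libraries, a log2 fold change of -2.03 with a standard error of 0.23 (adjusted p = 2.07e-05), while the glial rectifier gene Kcnj10 changed by 0.46. Cacna1e, the pore of R-type calcium channels, was at 448, 461 and 473 CPM in the 2.0 MAC libraries, against 754, 757 and 838 CPM in the 0.7 MAC libraries, a log2 fold change of -0.76 with a standard error of 0.07 (adjusted p = 3.22e-06).

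Within families, one member fell where its relative rose. The sodium channel gene Scn2a was at 411, 406 and 444 CPM in the 2.0 MAC libraries, against 574, 625 and 619.8 CPM in the 0.7 MAC libraries, a log2 fold change of -0.53 with a standard error of 0.07 (adjusted p = 5.77e-05). Scn1a, the main form of fast-spiking neurons, was at 587, 589 and 571 CPM in the 2.0 MAC libraries, against 456, 474 and 452 CPM in the 0.7 MAC libraries, a log2 fold change of 0.34 with a standard error of 0.05 (adjusted p = 0.000234). Of the pacemaker channels, Hcn2 changed by 0.43 and Hcn4 by 0.57, both past the test. Potassium channels of the K2P family, background channels that volatile anesthetics act on, showed no call: 0 of 9 tested genes passed in edgeR, with medians of 0.10 by exon reads and -0.23 by intron reads. With p under 0.05 before adjustment there were 2 higher and 1 lower, and DESeq2 called 0 and 0. Without 0.7 MAC replicate 1, 1 of them fell. Kcnk2 (TREK-1) and Kcnk9 (TASK-3) were at -0.38 and 0.21 (adjusted p = 0.0814 and 0.158). Nalcn, the sodium leak channel, was at 0.02 (adjusted p = 0.838).

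**Figure D3:**
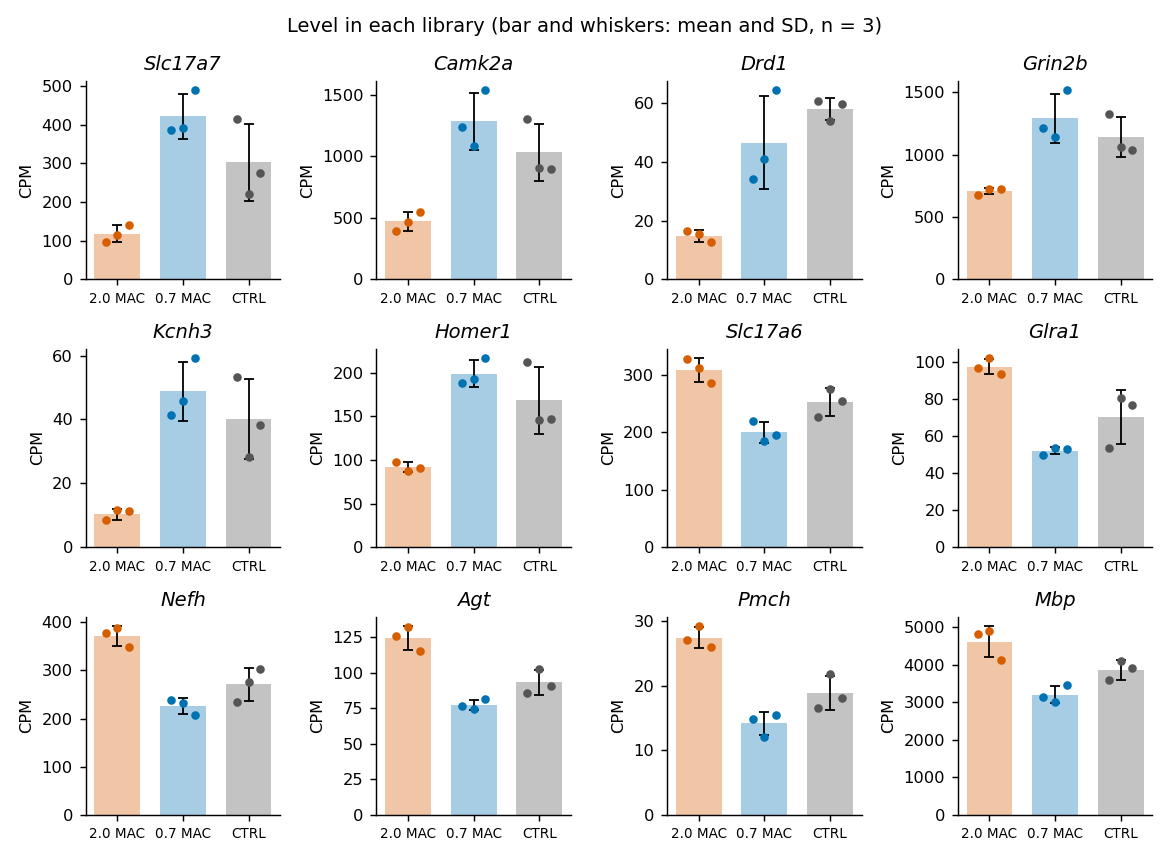
Normalized CPM in each library (points) of 12 genes, with the mean and SD of each group of 3 libraries as a bar and whiskers, for 2.0 MAC, 0.7 MAC and CTRL. The vertical axes are linear and start at 0. For Slc17a7, Camk2a, Drd1, Grin2b, Kcnh3 and Homer1 the 2.0 MAC libraries lie below all 0.7 MAC libraries, and for Slc17a6, Glra1, Nefh, Agt, Pmch and Mbp above them.

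Genes of vesicle fusion, which drives transmitter release, moved both ways. Of 25 tested genes 10 fell and 6 rose. Sv2b, a vesicle glycoprotein of forebrain excitatory neurons, was at 175, 183 and 193 CPM in the 2.0 MAC libraries, against 339.6, 331 and 393 CPM in the 0.7 MAC libraries, a log2 fold change of -0.95 with a standard error of 0.09 (adjusted p = 7.29e-06). Vamp1, the synaptobrevin of brainstem and spinal neurons, was at 588, 647 and 581 CPM in the 2.0 MAC libraries, against 402, 386 and 395 CPM in the 0.7 MAC libraries, a log2 fold change of 0.62 with a standard error of 0.08 (adjusted p = 7.36e-05). The complexin gene Cplx2 changed by -0.86 and its relative Cplx1 by 0.36, and the calcium sensor gene Syt1 by -0.54 and its relative Syt2 by 0.60. Snap25, which nearly every synapse uses, was at -0.00 (adjusted p = 0.968). The list median was -0.02, and 0.02 with upper-quartile scaling.

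Immediate early genes, which neurons switch on within minutes of activity, were lower or not called after 2.0 MAC. Of 35 tested genes 12 fell and 0 rose, with a median of -0.41. Fosl2, a Fos family factor, was at 37.7, 40.7 and 44.5 CPM in the 2.0 MAC libraries, against 68.8, 67.3 and 73.1 CPM in the 0.7 MAC libraries and 44.6, 31 and 26.7 CPM in the control libraries. Its 2.0 MAC and control libraries overlapped, and the 0.7 MAC libraries lay above both, a log2 fold change of -0.76 with a standard error of 0.13 (adjusted p = 0.000639). Nr4a2, a nuclear receptor that is also a marker of deep cortical and dopamine neurons, was at 12.6, 11.8 and 14.6 CPM in the 2.0 MAC libraries, against 42.6, 33.6 and 41.2 CPM in the 0.7 MAC libraries, a log2 fold change of -1.58 with a standard error of 0.19 (adjusted p = 4.11e-05). Homer1, a postsynaptic scaffold with an activity-induced short form, was at 97.8, 87 and 91 CPM in the 2.0 MAC libraries, against 188, 193 and 217 CPM in the 0.7 MAC libraries, a log2 fold change of -1.12 with a standard error of 0.12 (adjusted p = 1.16e-05). Egr4 changed by -1.27, Egr1 by -0.70 and Bdnf by -0.70, whereas Fos was at -0.25 (adjusted p = 0.298) and Npas4 at -0.62 (adjusted p = 0.0533, and 0.0174 without 0.7 MAC replicate 1). Set against the control group, 9 of the list were higher and 10 lower in the 2.0 MAC group, and 9 higher and 3 lower in the 0.7 MAC group, comparisons that share the control libraries. Several of these genes are strongly expressed in cortex, whose markers were lower in the same libraries, and that part of the values was not tested.

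The stretches upstream of Nr4a2 and Homer1 are shown because cyclic AMP-responsive genes often carry TGACG, the core of the CREB site, near their start. Nr4a2 lies at chr2:57106830-57124003 on the minus strand and Homer1 at chr13:93299635-93405129 on the plus strand (GENCODE M21 annotation of GRCm38). The windows are the 250 bases before the RefSeq start site, which for Homer1 lies inside the gene as GENCODE draws it, chr2:57124004-57124253 and chr13:93303507-93303756 of GRCm38.p6. They are printed 5′ to 3′ on the strand of the gene with TGACG or its reverse complement CGTCA in capitals.
Nr4a2: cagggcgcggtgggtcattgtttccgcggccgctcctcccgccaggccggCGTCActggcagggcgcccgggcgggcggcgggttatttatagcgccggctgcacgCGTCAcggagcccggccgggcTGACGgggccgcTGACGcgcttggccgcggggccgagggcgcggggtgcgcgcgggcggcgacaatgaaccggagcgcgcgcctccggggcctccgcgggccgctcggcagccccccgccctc
Homer1: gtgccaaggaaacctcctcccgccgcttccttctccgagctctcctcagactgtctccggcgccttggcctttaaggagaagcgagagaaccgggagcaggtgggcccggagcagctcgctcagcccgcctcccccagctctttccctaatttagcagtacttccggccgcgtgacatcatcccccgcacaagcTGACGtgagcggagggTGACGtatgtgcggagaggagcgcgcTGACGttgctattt
The Nr4a2 window holds 4 such matches, 200 to 111 bases before the start, and the Homer1 window holds 3, at 56, 40 and 14 bases. The windows of 153 of 10755 tested genes with a RefSeq promoter entry (1.42%) hold at least 3 matches, and 2883 (26.8%) at least 1. Among genes that fell 209 of 893 (23.4%) had at least 1 match, and among genes that rose 147 of 673 (21.8%). The motif was thus no more frequent upstream of genes that fell than upstream of all tested genes.

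Part of the genes of hypothalamic peptides and regulators were higher after 2.0 MAC. Of 19 tested hypothalamic markers 9 rose and 0 fell, with a median of 0.66, and of 15 further hypothalamic regulators 9 rose (median 0.57). In the same libraries, lists of thalamus, midbrain, monoaminergic neurons and oligodendrocytes had medians of 0.47 to 0.65, and cortex and striatum markers were lower. The share of hypothalamus in the dissected pieces is not known. Its part in these values and in those of peptide secretion genes was not tested. Hcrt, which encodes the orexin peptides of wakefulness, was at 10.2, 9.85 and 6.35 CPM in the 2.0 MAC libraries, against 5.43, 3.75 and 2.76 CPM in the 0.7 MAC libraries and 5.41, 6.93 and 6.05 CPM in the control libraries. The 2.0 MAC values lay above all 0.7 MAC values, a log2 fold change of 1.11 with a standard error of 0.25 (adjusted p = 0.0056), and 2.0 MAC replicate 3 lay within the control range. Pmch, which encodes melanin-concentrating hormone, was at 27.1, 29.2 and 26 CPM in the 2.0 MAC libraries, against 14.9, 12.1 and 15.5 CPM in the 0.7 MAC libraries and 16.5, 21.7 and 18.2 CPM in the control libraries, a log2 fold change of 0.95 with a standard error of 0.12 (adjusted p = 8.15e-05). The control libraries stood between the anesthetized groups. Oxt, which encodes oxytocin, was at 9.46, 10.2 and 9.25 CPM in the 2.0 MAC libraries, against 5.15, 4.89 and 6.13 CPM in the 0.7 MAC libraries and 3.77, 5.51 and 4.43 CPM in the control libraries, a log2 fold change of 0.83 with a standard error of 0.18 (adjusted p = 0.00409), and here the control and 0.7 MAC libraries overlapped. Cartpt, which encodes the appetite-regulating CART peptide, changed by 0.68. Avp, which encodes vasopressin, changed by 0.83 (adjusted p = 0.0148), a call lost without 2.0 MAC replicate 1 (adjusted p = 0.057) or 0.7 MAC replicate 3 (adjusted p = 0.054).

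These peptide genes are read at few exon reads, and Crh, which encodes corticotropin-releasing hormone, had 13 to 44 reads in each 2.0 MAC or 0.7 MAC library. Genes of peptide secretion were called in both directions. Of 17 tested genes of granins and peptide processing 4 rose and 4 fell (median -0.08), and the number that fell was 1 without any 1 of the 2.0 MAC libraries or without 0.7 MAC replicate 3, and 2 without 0.7 MAC replicate 1. Resp18, a secretory granule protein of endocrine neurons, was at 99.8, 108 and 102 CPM in the 2.0 MAC libraries, against 72.7, 61.6 and 67.7 CPM in the 0.7 MAC libraries, a log2 fold change of 0.62 with a standard error of 0.08 (adjusted p = 5.77e-05). Baiap3, which regulates dense-core vesicles, was at 156, 159 and 160.3 CPM in the 2.0 MAC libraries, against 106, 90.2 and 116 CPM in the 0.7 MAC libraries, a log2 fold change of 0.61 with a standard error of 0.08 (adjusted p = 0.000108). Chga, the chromogranin A gene of dense-core vesicles, was at 187, 183 and 178 CPM in the 2.0 MAC libraries, against 136, 135 and 139.9 CPM in the 0.7 MAC libraries, a log2 fold change of 0.42 with a standard error of 0.07 (adjusted p = 0.000679). All 3 genes were higher in every 2.0 MAC library. The imprinted gene Peg3 changed by 0.32 and Dlk1 by 0.63. Only 6 of the hypothalamic markers had intron reads enough for a test, and 0 of them passed in edgeR (3 at an unadjusted p under 0.05).

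The upstream stretches of Hcrt and Pmch, the 2 peptide genes of lateral hypothalamic neurons, are shown for comparison, since both rose and both genes are read in small cell groups. Hcrt lies at chr11:100761069-100762931 on the minus strand and Pmch at chr10:88091072-88092375 on the plus strand (GENCODE M21). The windows are chr11:100762932-100763181 and chr10:88090822-88091071 of GRCm38.p6, printed as above with the TATA box letters TATAAA in capitals.
Hcrt: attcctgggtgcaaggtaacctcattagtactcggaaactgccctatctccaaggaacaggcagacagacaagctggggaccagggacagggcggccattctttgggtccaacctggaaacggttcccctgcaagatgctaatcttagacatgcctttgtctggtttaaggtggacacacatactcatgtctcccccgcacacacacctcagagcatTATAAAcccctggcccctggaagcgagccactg
Pmch: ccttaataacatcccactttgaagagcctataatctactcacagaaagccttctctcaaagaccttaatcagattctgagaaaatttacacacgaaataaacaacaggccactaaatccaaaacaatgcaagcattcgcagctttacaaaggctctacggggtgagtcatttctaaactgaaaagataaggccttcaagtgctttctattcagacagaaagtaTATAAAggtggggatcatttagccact
TATAAA starts 33 bases before the Hcrt start site and 27 bases before that of Pmch. On the strand of the gene it occurs in 386 of 10755 windows (3.59%), in 30 of 673 of genes that rose (4.46%) and in 29 of 893 of genes that fell (3.25%).

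Neuropeptide precursor genes moved both ways. Of 30 tested genes 8 rose and 7 fell (median 0.36). Cck, which encodes cholecystokinin of cortical neurons, was at 21.3, 23.7 and 27.6 CPM in the 2.0 MAC libraries, against 51.1, 43.5 and 49.3 CPM in the 0.7 MAC libraries, a log2 fold change of -0.98 with a standard error of 0.13 (adjusted p = 0.000115). Penk, which encodes the enkephalins and is also in the striatal list, was at 95.7, 73.1 and 85.5 CPM in the 2.0 MAC libraries, against 125, 155 and 185 CPM in the 0.7 MAC libraries, a log2 fold change of -0.87 with a standard error of 0.12 (adjusted p = 0.000112). Sst, which encodes somatostatin, was at 29.9, 31.3 and 34.4 CPM in the 2.0 MAC libraries, against 49.3, 40.4 and 48.6 CPM in the 0.7 MAC libraries, a log2 fold change of -0.53 with a standard error of 0.10 (adjusted p = 0.00149). The groups did not overlap for any of these 3 genes. Vip and Pdyn changed by -0.98 and -0.69. Of 47 neuropeptide receptor genes 8 fell (17%, against 8.73% of all tested genes) and 4 rose (8.51%, against 5.98%). Without 2.0 MAC replicate 1 or 0.7 MAC replicate 3, 5 of them fell. The number that rose was 1 or 2 whichever 2.0 MAC or 0.7 MAC library was left out. Vipr1, a receptor for vasoactive intestinal peptide, changed by -1.97. The orexin receptor genes were not called, Hcrtr1 with 3.9, 5.81 and 4.56 CPM in the 2.0 MAC libraries and 4.04, 1.79 and 3.83 CPM in the 0.7 MAC libraries (adjusted p = 0.223) and Hcrtr2 at a log2 fold change of 0.24 (adjusted p = 0.462).

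Part of the genes of the thalamus, midbrain and hindbrain rose. Of 18 thalamic and habenular genes 9 rose and 1 fell (median 0.47), of 14 midbrain genes 4 rose (median 0.49) and of 15 hindbrain transcription factor genes 5 rose (median 0.59). Tcf7l2, a transcription factor of thalamic neurons, was at 145, 129.6 and 119.6 CPM in the 2.0 MAC libraries, against 84.8, 73.2 and 78 CPM in the 0.7 MAC libraries, a log2 fold change of 0.74 with a standard error of 0.09 (adjusted p = 5.57e-05). Irx2, an Iroquois factor, was at 22.1, 20 and 19.5 CPM in the 2.0 MAC libraries, against 14.6, 11.7 and 13.2 CPM in the 0.7 MAC libraries, a log2 fold change of 0.63 with a standard error of 0.13 (adjusted p = 0.0025). For both genes all 2.0 MAC values exceeded all 0.7 MAC values. Hox genes, which mark the hindbrain and spinal cord, were called in 0 of 7 tested cases by exon reads, with 4 at an unadjusted p under 0.05 and 0 by DESeq2. Their median was 0.72, and by intron reads 4 of 5 rose with a median of 1.11. By total gene reads 16 Hox genes could be tested and 7 rose. Hoxb8 was at 9.46, 19.2 and 14.5 CPM in the 2.0 MAC libraries, against 8.64, 10.8 and 7.05 CPM in the 0.7 MAC libraries (adjusted p = 0.0627), and 2.0 MAC replicate 1 overlapped the 0.7 MAC group. It passed without 2.0 MAC replicate 1, 0.7 MAC replicate 2 or CTRL replicate 3 (adjusted p = 0.0197, 0.04 and 0.0472). Summed Hox levels were 25.8, 39.5 and 31.5 CPM in the 2.0 MAC libraries, against 18.9, 21.4 and 20.1 CPM in the 0.7 MAC libraries and 17.9, 18.9 and 26.4 CPM in the control libraries.

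Modulatory neurons of the brainstem followed the same direction. Of 14 monoaminergic genes 8 rose and 0 fell (median 0.65). Slc6a4, the serotonin transporter gene, was at 12.6, 14.7 and 14.1 CPM in the 2.0 MAC libraries, against 6.27, 6.85 and 8.89 CPM in the 0.7 MAC libraries, a log2 fold change of 0.92 with a standard error of 0.19 (adjusted p = 0.00304). Slc6a3, the dopamine transporter gene, was at 33.8, 30.3 and 27.5 CPM in the 2.0 MAC libraries, against 20.5, 17.9 and 18.5 CPM in the 0.7 MAC libraries, a log2 fold change of 0.67 with a standard error of 0.11 (adjusted p = 0.000412). Ddc, which makes serotonin and dopamine, was at 33.2, 35.2 and 29.1 CPM in the 2.0 MAC libraries, against 21.4, 19.9 and 21.9 CPM in the 0.7 MAC libraries, a log2 fold change of 0.62 with a standard error of 0.11 (adjusted p = 0.000887). Groups did not overlap for any of the 3. Th, which makes dopamine and noradrenaline, was at 0.32 (adjusted p = 0.209). Of 8 cholinergic genes 3 rose. Prph, the peripherin gene of motor neurons, was at 13.4, 15 and 9.53 CPM in the 2.0 MAC libraries, against 6.41, 6.68 and 6.89 CPM in the 0.7 MAC libraries, a log2 fold change of 0.91 with a standard error of 0.19 (adjusted p = 0.00297), whereas Chat, which makes acetylcholine, was at 0.21 (adjusted p = 0.48).

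Of 15 tested acetylcholine receptor genes 3 rose and 3 fell (median 0.12). Chrm1, the M1 muscarinic receptor of the forebrain, was at 15.8, 17.6 and 21.8 CPM in the 2.0 MAC libraries, against 83.2, 74.7 and 107 CPM in the 0.7 MAC libraries, a log2 fold change of -2.25 with a standard error of 0.21 (adjusted p = 5.87e-06). Chrm2, the M2 receptor, was at 74, 77.2 and 75.9 CPM in the 2.0 MAC libraries, against 52.8, 50.9 and 57 CPM in the 0.7 MAC libraries, a log2 fold change of 0.50 with a standard error of 0.08 (adjusted p = 0.000416). The nicotinic subunit gene Chrna4 was at 89.6, 84.1 and 89.5 CPM in the 2.0 MAC libraries, against 60.2, 56.9 and 68 CPM in the 0.7 MAC libraries and 84.4, 87 and 86.6 CPM in the control libraries, a log2 fold change of 0.51 with a standard error of 0.07 (adjusted p = 0.000167). Its 2.0 MAC and control libraries overlapped, and the 0.7 MAC libraries were the low ones. Of 27 receptor genes for serotonin, dopamine, adrenaline and histamine 5 fell (18.5%, against 8.73% of all tested genes) and 1 rose (3.7%, against 5.98%). The dopamine receptor genes Drd1 and Drd2 among them are also striatal markers.

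Genes tied to breathing were mixed. Of 21 tested genes of breathing circuits and chemoreception 5 rose and 3 fell (median 0.32). Those that rose included Slc17a6, Slc6a5, Ret and Chrna3, and those that fell were Sst, Tac1 and Npy2r, all genes that other regions express too. Calls were lost without 0.7 MAC replicate 1 for Chrna3 (adjusted p = 0.0736) and without 0.7 MAC replicate 3 for Tac1 and Npy2r (adjusted p = 0.107 and 0.0676). Ret, a receptor of glial cell line-derived growth factors, was at 84, 85.5 and 76.6 CPM in the 2.0 MAC libraries, against 50.3, 51 and 48.4 CPM in the 0.7 MAC libraries, a log2 fold change of 0.72 with a standard error of 0.09 (adjusted p = 5.49e-05). Slc6a5, the neuronal glycine transporter of brainstem inhibitory neurons, was at 199, 211 and 188 CPM in the 2.0 MAC libraries, against 128, 111 and 115 CPM in the 0.7 MAC libraries, with a log2 fold change of 0.75. The mu opioid receptor gene Oprm1 was at 0.32 (adjusted p = 0.122).

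Neurofilament genes, which support the calibre of long axons, rose together. Of 14 genes of neurofilaments and large projection neurons 11 rose and 0 fell, with a median of 0.46. Nefh, the heavy subunit, was at 379, 388 and 348 CPM in the 2.0 MAC libraries, against 239, 232 and 208 CPM in the 0.7 MAC libraries, a log2 fold change of 0.71 with a standard error of 0.08 (adjusted p = 2.07e-05). Nefm, the medium subunit, was at 465, 524 and 464 CPM in the 2.0 MAC libraries, against 339.9, 327 and 322 CPM in the 0.7 MAC libraries, a log2 fold change of 0.55 with a standard error of 0.07 (adjusted p = 7.89e-05). Sncg, a synuclein of large projection and sensory neurons, was at 23.2, 22.1 and 19.2 CPM in the 2.0 MAC libraries, against 11.4, 13.2 and 11.9 CPM in the 0.7 MAC libraries, a log2 fold change of 0.81 with a standard error of 0.13 (adjusted p = 0.000545). The 2 groups did not overlap for any of them, and the control libraries lay at 235, 277 and 303 CPM for Nefh, 314, 381 and 392 CPM for Nefm and 13.1, 15.9 and 17.7 CPM for Sncg. By intron reads 2 of 11 rose.

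Oligodendrocyte genes rose almost as a whole. Of 30 tested genes 28 rose and 0 fell, with a median of 0.50, and by intron reads 17 of 28 rose. Mbp, a main protein of myelin, was at 4799.7, 4893 and 4132 CPM in the 2.0 MAC libraries, against 3142, 2998 and 3451 CPM in the 0.7 MAC libraries, a log2 fold change of 0.53 with a standard error of 0.07 (adjusted p = 7.27e-05). Qdpr, which regenerates tetrahydrobiopterin, was at 249, 249 and 237 CPM in the 2.0 MAC libraries, against 184, 161 and 159.9 CPM in the 0.7 MAC libraries, a log2 fold change of 0.54 with a standard error of 0.06 (adjusted p = 2.34e-05). Trf, which encodes transferrin, was at 408, 386 and 376 CPM in the 2.0 MAC libraries, against 280.1, 286 and 278 CPM in the 0.7 MAC libraries, a log2 fold change of 0.47 with a standard error of 0.05 (adjusted p = 3.24e-05). For each gene the 0.7 MAC libraries were the lowest of the 9. The range over the list was 0.35 for the carbonic anhydrase gene Car2 to 0.72 for the transcription factor gene Nkx6-2 among members that passed. Against the control group, 8 of the 30 rose in the 2.0 MAC group and 9 fell in the 0.7 MAC group. Summed levels were 14485, 14488 and 12168 CPM in the 2.0 MAC libraries, 9603, 8997 and 10508 CPM in the 0.7 MAC libraries and 11114, 12672 and 12006 CPM in the control libraries. Genes of oligodendrocyte precursors were not called, 0 of 11 in edgeR and 0 in DESeq2 (before adjustment, p was under 0.05 for 1 higher and 1 lower gene), with a median of 0.12.

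Astrocyte genes divided. Of 27 tested genes 15 rose and 4 fell, with a median of 0.21. Agt, which encodes angiotensinogen and is made by astrocytes of the brainstem and hypothalamus, was at 126, 132 and 115 CPM in the 2.0 MAC libraries, against 76.3, 74.3 and 81.5 CPM in the 0.7 MAC libraries, a log2 fold change of 0.68 with a standard error of 0.08 (adjusted p = 2.07e-05). Slc6a11, a GABA transporter of astrocytes, was at 572, 569.8 and 535 CPM in the 2.0 MAC libraries, against 379, 345 and 378 CPM in the 0.7 MAC libraries, a log2 fold change of 0.60 with a standard error of 0.07 (adjusted p = 2.67e-05). Gfap, the filament gene of fibrous astrocytes, was at 126, 161 and 133 CPM in the 2.0 MAC libraries, against 103, 103 and 87 CPM in the 0.7 MAC libraries, a log2 fold change of 0.52 with a standard error of 0.09 (adjusted p = 0.00059). All 3 were higher in every 2.0 MAC library than in any 0.7 MAC library. Slc1a2, the main glutamate transporter and abundant in cortical astrocytes, was at 3736, 3987 and 3690.0 CPM in the 2.0 MAC libraries, against 4422, 4244 and 5301 CPM in the 0.7 MAC libraries, a log2 fold change of -0.29 with a standard error of 0.07 (adjusted p = 0.0104), with adjusted p = 0.138 in limma on RPKM and 0.075 by total gene reads. Slc1a3, Fam107a and Mfge8 changed by -0.41, -0.37 and -0.54. The list summed to 9532, 9780.1 and 9376 CPM in the 2.0 MAC libraries and 9599, 9390.2 and 10247 CPM in the 0.7 MAC libraries, and these ranges overlapped.

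**Figure D4:**
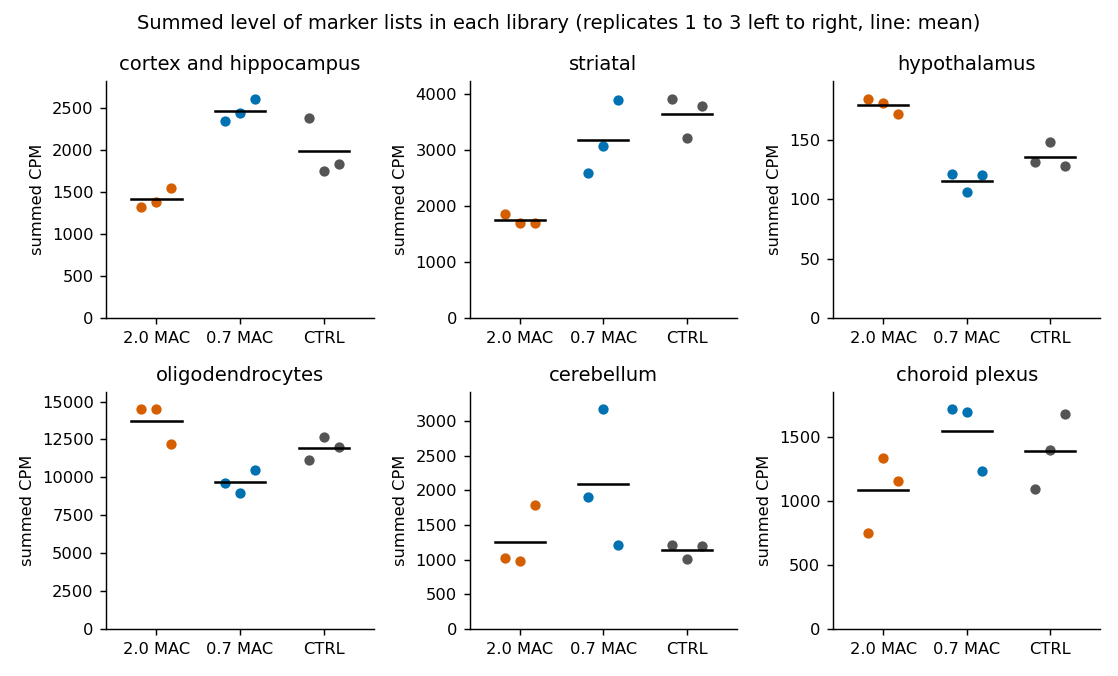
Summed CPM of the tested genes of 6 marker lists in each library (points), with the group mean as a line, for 2.0 MAC, 0.7 MAC and CTRL. The vertical axes are linear and start at 0. Cortex and striatum sums are below the 0.7 MAC libraries in all 2.0 MAC libraries and those of hypothalamus and oligodendrocytes above, whereas cerebellar sums are high in 2.0 MAC replicate 3 and in 0.7 MAC replicates 1 and 2, and choroid plexus sums overlap.

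Genes of microglia, vessels and meninges had few calls. Of 21 microglial and macrophage genes Tlr2 rose, of 24 endothelial genes Cdh5 and Ly6a rose, of 12 genes of pericytes and smooth muscle Notch3 rose, and of 14 meningeal genes 0 passed in edgeR or DESeq2 (4 higher at an unadjusted p under 0.05). These shares are at or below the background of 5.98%, except that of the endothelial and pericyte lists, at 8.33% each. The calls of Tlr2, Cdh5 and Notch3 were each lost without 2.0 MAC replicate 1 (adjusted p = 0.132, 0.0833 and 0.109) or 0.7 MAC replicate 3 (adjusted p = 0.0975, 0.0715 and 0.0571), and that of Ly6a without 2.0 MAC replicate 2 (adjusted p = 0.0611). Cdh5 was not called whichever 2.0 MAC or 0.7 MAC library was left out (adjusted p = 0.0544 to 0.138). Tlr2 was also not called without 2.0 MAC replicate 3 or 0.7 MAC replicate 1 or 2, and Notch3 without 0.7 MAC replicate 2. Of 21 choroid plexus genes 4 fell (median -0.51). Ttr, which encodes the transthyretin secreted by the choroid plexus, was at 139, 441 and 385 CPM in the 2.0 MAC libraries, against 707, 688 and 438 CPM in the 0.7 MAC libraries, a log2 fold change of -0.92 with a standard error of 0.30 (adjusted p = 0.0478). The groups overlapped, since 2.0 MAC replicate 2 exceeded 0.7 MAC replicate 3 by a little, and the call was lost without 2.0 MAC replicate 1 (adjusted p = 0.132) and in DESeq2 (adjusted p = 0.253). The number of choroid plexus genes that fell was 0 without 2.0 MAC replicate 1, 2 without 2.0 MAC replicate 3, 1 without 0.7 MAC replicate 1, 2 without 0.7 MAC replicate 2 and 7 without 0.7 MAC replicate 3. Of 18 genes of the cerebellar list Itpr1 fell, at 413, 415 and 729 CPM in the 2.0 MAC libraries, against 931, 1411 and 799 CPM in the 0.7 MAC libraries, a log2 fold change of -1.01 with a standard error of 0.21 (adjusted p = 0.003). The cerebellar granule cell gene Gabra6 was at 5.75, 3.87 and 35.5 CPM in the 2.0 MAC libraries, against 27.4, 68.6 and 0.46 CPM in the 0.7 MAC libraries (adjusted p = 0.445, and 0.0471 without 0.7 MAC replicate 3). Replicate 3 of the 0.7 MAC group thus had the lowest Gabra6 level of both groups but more Itpr1 than every 2.0 MAC library. Itpr1 made up 799 of the 1213 CPM summed over the list there, so Itpr1 and that sum did not follow Gabra6. Without 0.7 MAC replicate 3 the median of the cerebellar list was -1.18 with 11 genes that fell, without 0.7 MAC replicate 2 it was 0.09, and without 2.0 MAC replicate 3 -1.36 with 3 genes that fell, against -0.92 and 1 with all libraries.

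Genes of stress responses were called in small numbers, which are read against the background of 5.98% that rose and 8.73% that fell. Of 15 glucocorticoid-induced genes Arrdc2 rose and Klf9 fell (adjusted p = 0.0457). The Klf9 call was lost without any 1 of the 2.0 MAC libraries or without 0.7 MAC replicate 2 or 3 (adjusted p = 0.089 to 0.147). It was also lost with upper-quartile scaling (adjusted p = 0.119) and in DESeq2 (adjusted p = 0.0768). Of 20 heat shock chaperone genes 2 rose (10%), and of 20 genes of the unfolded protein response 1 rose. Of 19 genes of oxidative stress and metal binding 4 rose (21.1%, and 1 without 2.0 MAC replicate 1 and 2 without 0.7 MAC replicate 1 or 2). Arrdc2 was at 48.4, 39.9 and 37 CPM in the 2.0 MAC libraries, against 26.6, 28 and 32.5 CPM in the 0.7 MAC libraries and 9.83, 20 and 20.5 CPM in the control libraries, a log2 fold change of 0.52 with a standard error of 0.17 (adjusted p = 0.047), with adjusted p = 0.205 without 2.0 MAC replicate 1 and 0.0946 to 0.158 without 2.0 MAC replicate 2, 0.7 MAC replicate 1 or 0.7 MAC replicate 2, and 0.248 in DESeq2. Cdkn1a, a cell cycle inhibitor that glucocorticoids induce, was at 24.7, 24.4 and 27.1 CPM in the 2.0 MAC libraries, against 18.7, 20.5 and 23.1 CPM in the 0.7 MAC libraries and 10.3, 9.76 and 10 CPM in the control libraries (adjusted p = 0.0785, and 0.0413 without 0.7 MAC replicate 3). For both genes the anesthetized groups lay above the control libraries. Against control, 10 of the list rose in the 2.0 MAC group and 5 in the 0.7 MAC group, comparisons that share the control libraries. The metallothionein gene Mt1 was at 86.4, 75.9 and 84 CPM in the 2.0 MAC libraries, against 66.3, 65.9 and 65.7 CPM in the 0.7 MAC libraries, a log2 fold change of 0.31 with a standard error of 0.08 (adjusted p = 0.00942), or adjusted p = 0.0559 without 2.0 MAC replicate 1. Of 20 targets of the hypoxia-inducible factor 4 fell (20%) and 2 rose (10%). Ldha, which encodes the muscle-type subunit of lactate dehydrogenase, was at 74.6, 74.1 and 75 CPM in the 2.0 MAC libraries, against 104, 111 and 117 CPM in the 0.7 MAC libraries, a log2 fold change of -0.57 with a standard error of 0.09 (adjusted p = 0.000298), and Ndrg1, also an oligodendrocyte gene, changed by 0.42. Vegfa was at 0.10 (adjusted p = 0.466). Of 21 clock genes Npas2, Per2 and Tef fell, with Per2 and Tef not called without 2.0 MAC replicate 2 (adjusted p = 0.0729 and 0.0703). Npas2, the forebrain partner of Bmal1, was at 20, 20 and 17.7 CPM in the 2.0 MAC libraries, against 34.4, 34.2 and 33.9 CPM in the 0.7 MAC libraries, a log2 fold change of -0.83 with a standard error of 0.12 (adjusted p = 0.000132).

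Intron reads, which come from RNA not yet spliced, were counted apart from exon reads and tested in the same way. Of 16142 tested genes 492 rose (3.05%) and 615 fell (3.81%) by intron reads, together 6.86%, and by at least 2-fold 24 rose (0.149%) and 140 fell (0.867%). Of 801 genes that rose by exon reads and could be tested in introns, 707 had a positive intron log2 fold change and 204 (25.5%) rose by intron reads as well, which is 46.6% of the 438 that rose by intron reads. Of 1170 that fell by exon reads, 1103 had a negative intron log2 fold change and 409 (35%) fell by intron reads, which is 76.7% of 533. Intron and exon reads come from the same libraries and are not independent samples. Camk2a intron reads were at 158, 168 and 196 CPM in the 2.0 MAC libraries, against 280.4, 258 and 343 CPM in the 0.7 MAC libraries, a log2 fold change of -0.75 with a standard error of 0.13 (adjusted p = 0.00487), a smaller fall than by exon reads. Slc17a6 intron reads were at 35.9, 39.4 and 35.8 CPM in the 2.0 MAC libraries, against 20.4, 21.2 and 24.2 CPM in the 0.7 MAC libraries, a log2 fold change of 0.75 with a standard error of 0.10 (adjusted p = 0.00111). Cnksr2 changed by -1.21 in introns and -1.31 in exons. Calls in opposite directions were made for 2 genes. The kinase gene Mast3 had log2 fold changes of -0.32 by exon and 0.38 by intron reads, and the bicarbonate cotransporter gene Slc4a4 of 0.17 and -0.31. By exon reads both calls are near the threshold (adjusted p = 0.0163 and 0.0244) and were lost without 2.0 MAC replicate 3 (adjusted p = 0.0617 and 0.0557).

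**Figure D5:**
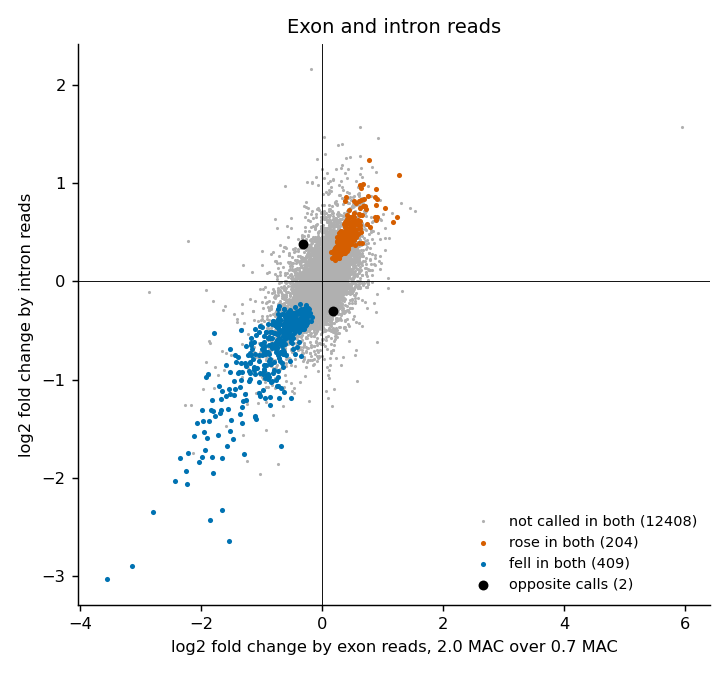
Log2 fold change of 2.0 MAC over 0.7 MAC by intron reads (vertical axis) against that by exon reads (horizontal axis) for 13023 genes tested in both. Orange points rose and blue points fell in both tests (204 and 409), and the 2 black points were called in opposite directions.

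Levels in the control group place the 2 anesthetized groups. Set against control, 2.0 MAC gave 475 rises (3.36%) and 908 falls (6.42%) and 0.7 MAC gave 125 rises (0.884%) and 105 falls (0.743%), with the same control libraries in both comparisons. Cortical genes had medians of -0.52 for 2.0 MAC and 0.25 for 0.7 MAC against control, and striatal genes -1.16 and -0.24. Hypothalamic genes had 0.45 and -0.27, oligodendrocyte genes 0.23 and -0.29, and glycinergic genes 0.12 and -0.17. By these medians the control level lay between those of the anesthetized groups for these 3 lists and the cortical list, but not for the striatal list. Among single genes, Nefh had log2 fold changes of 0.45 for 2.0 MAC and -0.26 for 0.7 MAC against control, Drd1 of -1.98 and -0.32, and Fosl2 of 0.28 and 1.04.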

How the data were processed

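RNA of 9 mouse brain libraries was depleted of ribosomal RNA and sequenced by the authors with a strand-keeping kit on a NextSeq 500. The authors mapped the reads with the CLC Genomics Workbench to GRCm38 (mm10) and deposited raw read counts per gene (exon-based, intron and total gene reads) and RPKM values; the annotation release, mapping settings and use of strand in counting are not given in the sources used here. A further 90 per-library value columns and 24 columns of the authors' own comparisons (fold changes and p-values) were not used.

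Libraries were grouped by their titles. Exon-based counts of all 9 libraries were filtered with filterByExpr (minimum count 10), scaled by TMM and fitted with the quasi-likelihood test of edgeR 4.0.16 in R 4.3.3 with group as the only term, and all p-values were adjusted by Benjamini-Hochberg over 14140 genes. Intron reads were fitted likewise. Standard errors are those of the log2 fold change from the same fit. On counts simulated for 2.0 MAC against 0.7 MAC over 13992 genes, 65.3% of genes changed 1.5-fold and 80% of those changed 2-fold were called, and 8 of 177 calls were false. Each gene was drawn independently, with far fewer changed genes than were called here and no uneven tissue content within groups. These rates need not hold for the real libraries. Alternatives were upper-quartile scaling, library totals, DESeq2 1.42.0, no filter, a minimum count of 50, the 6 libraries alone, the replicate number as a block, total gene reads, limma 3.58.1 on log2(RPKM + 0.1), and leaving out each library.

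The comparison and the gene lists were chosen with earlier results of these data known. Lists are described by counts and medians, with no set test. Genes were named by these rules: the 12 highest and 12 lowest log2 fold changes past the test by at least 2-fold, with at least 1 CPM in the higher group and no overlap, the 6 smallest adjusted p and the 10 most abundant calls in each direction, up to 4 members of each list by adjusted p, Hcrt, Hcrtr1, Hcrtr2, Crh, Pmch and Gapdh, and genes called in opposite directions by exon and intron reads. Of these, Gm19345, Gm21119, Gm26673, A330033J07Rik, Map1b, Dpysl2, Gpm6b and Purb are not described, and some other genes are not reported here. Chosen after their values were seen were Avp, Bdnf, Cadps2, Car2, Chat, Chrna3, Cplx1, Egr1, Egr4, Fam107a, Fos, Gabra6, Gm21985, Grin2d, Mfge8, Nalcn, Nkx6-2, Npas4, Npy2r, Oprm1, Pcsk2, Pdyn, Scn4b, Slc1a3, Snap25, Syt2, Tac1, Th, Vegfa and Vip. Promoter stretches are from RefSeq (GRCm38.p6), which had an entry for 10755 of the tested genes, and gene positions are from GENCODE M21.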

Additional observations from a re-analysis of the deposited data

How the results depend on the processing

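At any fold, falls numbered 866 to 1278 and rises 497 to 865 when single libraries were left out, and at 2-fold 158 to 207 and 9 to 22. For at least 2-fold rises the other settings gave 10 with DESeq2, 31 with no filter, 1 at a minimum count of 50 and 8 with limma on RPKM, and 2-fold falls numbered 121 at a minimum count of 50. At any fold limma on RPKM gave 1705 rises and 723 falls. By intron reads, rises numbered 803 and falls 1067 with no filter, and leaving out single libraries gave 174 to 570 rises and 225 to 644 falls, the lowest of each without 2.0 MAC replicate 2. Without 2.0 MAC replicate 1 there were 272 and 283, and without 0.7 MAC replicate 2 there were 306 rises. At 2-fold, intron rises numbered 75 with no filter, 12 with DESeq2 and 9 to 26 without single libraries, fewest without 2.0 MAC replicate 2 (9), 2.0 MAC replicate 1 (10) or 0.7 MAC replicate 2 (12), and intron falls 231 with no filter and 88 to 139 without single libraries, fewest without 2.0 MAC replicate 2. With no filter, Gabra6, whose levels were uneven within groups, got an adjusted p of 4.21e-13.

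Samples of the same replicate number did not deviate together, with correlations of their residuals of -0.23 to 0.0013 and 0 of 9 pairs over 0.1. The numbers are used here as names of libraries. A pairing masked by uneven tissue content within groups could not be seen this way. With the replicate block there were 684 rises and 1081 falls at any fold, 16 and 176 at 2-fold, and 312 rises and 425 falls by intron reads.

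Of 159 named genes in 18 other settings, the direction turned for 10 gene and setting combinations, of these all but that of Slc4a4 in genes not called. Snap25 was at 0.0337 with upper-quartile scaling, 0.029 with library totals and 0.0947 with limma, and at -0.0181 to 0.0231 when single libraries were left out. Gabra6 was at -2.74 to 0.15 without single libraries. Nalcn was at -0.0625 with total gene reads and at -0.0184 to 0.0708 without single libraries. Slc4a4 was at -0.11 with total gene reads, which add the intron reads that fell. Calls lost in limma on RPKM or by total gene reads included those of Mast3, Klf9, Per2, Tef and Tac1. Beside that of Slc4a4, a call was lost in 139 combinations and gained in 23. The cause of these changes was not tested.

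Depth limited the precision of genes such as Crh, at 13 to 44 reads in each anesthetized library, and peptide genes with short introns could not be tested by intron reads. With 3 libraries a group, changes of 1.5-fold were often not called in simulated counts. No molecular identifiers are described for these libraries.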

Other observations

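Genes of energy metabolism and protein synthesis were called in small numbers, and those counts depended on single libraries. None of 13 tested genes of the mitochondrial genome passed in edgeR or DESeq2, with 1 higher at an unadjusted p under 0.05, and their summed levels were 17650, 16585 and 16461 CPM in the 2.0 MAC libraries and 16390, 16507 and 16458 CPM in the 0.7 MAC libraries. Of 37 nuclear genes of respiratory complex I 2 rose (5.41%, against 5.98% of all tested genes). The log2 fold change was above 0 for 36 of them, against 7171 of all 14140 tested genes. Their median was 0.13 by exon reads and 0.02 by intron reads. Of 42 genes of complexes II to V 4 rose (9.52%), with a median of 0.14 by exon reads and -0.01 by intron reads. That count was 0 without 2.0 MAC replicate 2 or 0.7 MAC replicate 3, 1 without 2.0 MAC replicate 3 and 2 without 2.0 MAC replicate 1 or 0.7 MAC replicate 2. Among these genes, Cox6b1, a subunit of cytochrome oxidase, changed by 0.23 (adjusted p = 0.0279) and Atp5j2, a subunit of ATP synthase, by 0.32. Of 81 ribosomal protein genes Rpl11 and Rpl37 rose (2.47%, against 5.98% of all tested genes), by 0.29 and 0.28, and 0 did without 2.0 MAC replicate 3 or 0.7 MAC replicate 3. Gapdh, a glycolytic enzyme used as a reference gene, averaged 126 ± 7.36 CPM in the 2.0 MAC group and 118 ± 5.25 CPM in the 0.7 MAC group (SD, n = 3 each), and the groups overlapped (log2 fold change 0.09, edgeR adjusted p = 0.441).

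Scg2, which encodes secretogranin II of dense-core vesicles, was at 342, 345 and 353 CPM in the 2.0 MAC libraries, against 281, 261 and 268 CPM in the 0.7 MAC libraries, a log2 fold change of 0.36 with a standard error of 0.05 (adjusted p = 0.000236). Its groups did not overlap. The prohormone convertase gene Pcsk2 changed by -0.25 and the vesicle priming gene Cadps2 by -0.50, both calls lost without 2.0 MAC replicate 1 (adjusted p = 0.0563 and 0.094) or 2.0 MAC replicate 2 (adjusted p = 0.112 and 0.0913). Of 15 genes of the interferon response and antigen presentation 2 rose (13.3%, against 5.98% of all tested genes), with a median of 0.37. None did without 2.0 MAC replicate 2 or 0.7 MAC replicate 1. Of 13 genes of ependymal cells and motile cilia Hydin rose, by 0.49 (adjusted p = 0.0348). The call was lost without 2.0 MAC replicate 1 (adjusted p = 0.133) or 2 (0.127) or any 1 of the 0.7 MAC libraries (0.0617 to 0.0873). It was also lost in DESeq2 (adjusted p = 0.12). None of 26 tested histone cluster genes passed in edgeR or DESeq2, with 2 lower at an unadjusted p under 0.05 and a median of -0.22.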
